A study of Mus musculus with 45 samples.

Results

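The complement genes described here are C1qa, C1qb, C1qc, C4b, C3, C3ar1 and Serping1, 7 genes chosen by name and found by their Ensembl identifiers among the 15897 genes of the deposited expression table. All 7 were in the table, so none was lost to the authors' filter on low counts. Poly(A) RNA was sequenced from the hippocampus of 45 female C57Bl/6J mice, with each mouse as 1 sample. The mice were wild type (AwTw), carried tau with the P301L mutation under the CaMKII promoter (AwT+), carried APPswe and PS1dE9 under the mouse prion protein promoter (A+Tw), or carried both sets of transgenes after a cross of the lines (A+T+). Each genotype was fed either a standard diet with 5% fat and 0% cholesterol (STD) or a Western diet with 21% fat, 0.15% cholesterol and 35% sucrose (TWD), from 7 until 13 months of age. The groups held 6 AwTw/STD, 6 AwT+/STD, 5 A+Tw/STD, 4 A+T+/STD, 6 AwTw/TWD, 6 AwT+/TWD, 6 A+Tw/TWD and 6 A+T+/TWD mice. Below, A+ stands for the 21 mice with the APP/PS1 transgenes and Aw for the 24 mice without them.

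Complement is a cascade of proteins that tags targets for removal. C1q, assembled from the products of C1qa, C1qb and C1qc, recognises a target and starts the classical pathway, in which C4 and then C3 are cleaved and bound to the surface. The receptor C3ar1 senses the fragment C3a, and C1 inhibitor, encoded by Serping1, blocks the proteases that C1q activates. In the brain C1q is made mainly by microglia, and complement has been studied at synapses and at amyloid plaques.

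The 3 C1q genes lie side by side on chromosome 4, with C1qb at chr4:136880129-136886187, C1qc at chr4:136889804-136893065 and C1qa at chr4:136895917-136898803 (GENCODE annotation of GRCm38). C4b is at chr17:34728380-34743882, C3 at chr17:57203970-57228136, C3ar1 at chr6:122847138-122856161 and Serping1 at chr2:84765387-84775444. All 7 are protein coding and on the minus strand. C4b has a near-identical neighbour, C4a, at chr17:34809092-34823464, so the division of reads between these genes is uncertain.

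RefSeq promoter windows (GRCm38.p6) were at hand for 4 of the 7 genes, C1qb, C1qc, C3 and C3ar1. The 250 bases before the RefSeq start are shown for C1qb and C1qc, neighbours whose levels moved together, and for C3ar1, which moved differently from them within groups. They are written 5′ to 3′ on the minus strand, and capitals mark GAGGAA or its complement (the core of the PU.1 motif) in C1qb and C1qc and TGANTCA (AP-1) in C3ar1.
C1qb, chr4:136886201-136886450: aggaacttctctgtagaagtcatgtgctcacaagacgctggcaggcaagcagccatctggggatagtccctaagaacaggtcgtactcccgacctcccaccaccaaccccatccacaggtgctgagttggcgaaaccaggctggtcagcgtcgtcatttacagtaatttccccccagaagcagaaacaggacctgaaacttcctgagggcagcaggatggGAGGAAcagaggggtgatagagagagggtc
C1qc, chr4:136892915-136893164: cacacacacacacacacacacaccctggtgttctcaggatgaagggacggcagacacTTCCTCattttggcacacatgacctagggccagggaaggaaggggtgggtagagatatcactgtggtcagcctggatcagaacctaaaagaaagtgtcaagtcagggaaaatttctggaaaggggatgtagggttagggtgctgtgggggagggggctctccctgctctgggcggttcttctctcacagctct
C3ar1, chr6:122856158-122856407: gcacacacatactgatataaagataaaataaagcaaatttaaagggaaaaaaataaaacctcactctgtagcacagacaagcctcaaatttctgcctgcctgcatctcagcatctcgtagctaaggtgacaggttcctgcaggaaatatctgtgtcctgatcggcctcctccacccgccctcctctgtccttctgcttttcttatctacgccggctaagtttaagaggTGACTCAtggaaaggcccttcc
RefSeq and GENCODE place some starts differently, so that 151 of the bases printed for C1qc and 4 of those for C3ar1 lie inside the gene at its GENCODE coordinates. The windows searched, on both strands, were 300 bases long and ended 50 bases after the start. The PU.1 core was found once in C1qb, at bases 221 to 226, and once in C1qc, at bases 58 to 63, and it is present in 28.3% of the 32851 windows of all genes. TGANTCA, which reads the same on both strands, was found in C3ar1 at bases 229 to 235 and is present in 7.81% of all windows. Neither GAS (TTCNNNGAA, in 8.3% of all windows) nor the interferon-stimulated response element (3.44%) nor an NF-kB motif (0.411%) was found in the 4 windows, and C3 held none of the motifs searched.

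The deposited values are on a log2 scale after a variance-stabilising transformation and removal of a batch effect, so a difference of 1 is close to a fold of 2 for well expressed genes and understates the change of low ones. Differences are given with their standard error (SE) and with p-values from limma, adjusted over all 15897 genes. A gene was called at an adjusted p under 0.05. Levels of different genes are not compared, because the values are not per length, and the depth of each mouse's library is unknown.

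App was 0.90 ± 0.0486 (log2, SE) and Prnp, whose promoter drives the APP/PS1 transgenes, 1.11 ± 0.0452 higher in A+ than in Aw mice. Between mice with and without the tau transgene Mapt differed by 0.06 ± 0.0549 and Camk2a by -0.06 ± 0.0703, so the tau genotype could not be checked from these genes. Choroid plexus tissue varied widely between dissections, with its marker Ttr between 7.49 and 18.08. A single component, computed from all genes, held 41.3% of the variance left after group and batch. The score of each mouse on this component was computed from its deposited values, in which group differences remained. By this score 1 AwTw/TWD mouse and 1 A+T+/TWD mouse, both of batch 1, lay beyond 2 SD.

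C1qa, the A chain of C1q, separated the A+ from the Aw mice on the standard diet. In AwTw/STD mice its value ran from 9.69 through a median of 9.82 to 10.38, and in AwT+/STD mice from 9.63 through 9.95 to 10.14. The A+Tw/STD mice had 10.77, 10.88, 10.94, 11.80 and 12.14, and the A+T+/STD mice had 11.06, 11.07, 11.30 and 11.36. Every A+ mouse thus stood above every Aw mouse on this diet, and 2 A+Tw/STD mice stood above all other mice on it. On TWD, C1qa ran from 9.83 through 10.59 to 11.18 in AwTw mice and from 9.97 through 10.39 to 10.89 in AwT+ mice. It ran from 11.27 through 11.64 to 11.76 in A+Tw/TWD mice and from 10.84 through 11.27 to 12.07 in A+T+/TWD mice. The A+Tw/TWD mice stood above all Aw mice, while the lowest A+T+/TWD mouse lay below the highest mouse of both Aw groups.

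C1qb and C1qc, the B and C chains, repeated this pattern. On STD, C1qb ran from 9.63 through 9.80 to 10.47 in AwTw mice and from 9.67 through 9.93 to 10.17 in AwT+ mice. Its values in A+Tw/STD mice were 10.74, 10.81, 10.84, 11.81 and 12.08, and in A+T+/STD mice 11.01, 11.10, 11.27 and 11.35. The Aw and A+ mice did not overlap. C1qc ran from 9.30 through 9.48 to 9.95 in AwTw/STD mice and from 9.36 through 9.59 to 9.72 in AwT+/STD mice. For this gene the A+Tw/STD mice had 10.39, 10.53, 10.54, 11.35 and 11.65, and the A+T+/STD mice 10.70, 10.77, 10.96 and 10.99, again without overlap. On TWD the Aw and A+ ranges overlapped for both genes. The highest AwTw/TWD mouse had 11.26 for C1qb, above the lowest A+Tw/TWD mouse (11.17) and the lowest A+T+/TWD mouse (10.73). For C1qc it had 10.94, against 10.93 and 10.43.

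C4b, which encodes the C4 component, separated A+ from Aw mice on both diets. On STD it ran from 9.64 through 9.99 to 10.28 in AwTw mice and from 9.80 through 9.97 to 10.20 in AwT+ mice. Among A+Tw/STD mice the values were 11.57, 11.57, 11.59, 11.59 and 12.21, and among A+T+/STD mice 11.24, 11.41, 11.54 and 11.89. The lowest A+ mouse on STD (11.24) stood above the highest Aw mouse (10.28). On TWD it ran from 9.83 through 10.40 to 11.26 in AwTw mice and from 9.95 through 10.32 to 10.94 in AwT+ mice. It ran from 11.27 through 11.93 to 12.62 in A+Tw/TWD mice and from 11.44 through 11.79 to 12.48 in A+T+/TWD mice. There was again no overlap, although the highest AwTw/TWD mouse stood just below the lowest A+Tw/TWD mouse. This AwTw/TWD mouse was the one beyond 2 SD on the residual component, and it was also the highest of its group for C1qa, C1qb, C1qc and C3 and the lowest for C3ar1.

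C3ar1, the C3a receptor, also stood higher in A+ mice. On STD it ran from 5.34 through 6.32 to 6.50 in AwTw mice and from 5.66 through 5.86 to 6.38 in AwT+ mice. C3ar1 was 6.58, 6.64, 6.97, 7.15 and 7.27 in the A+Tw/STD mice, and 6.53, 6.68, 6.82 and 7.15 in the A+T+/STD mice. There was no overlap on STD, by a narrow margin. On TWD the medians were 5.81 in AwTw mice (5.28 to 6.14), 6.01 in AwT+ mice (5.66 to 6.48), 6.75 in A+Tw mice (6.35 to 6.99) and 6.79 in A+T+ mice (6.21 to 7.04). The A+ mice on TWD overlapped the AwT+ mice but not the AwTw mice.

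C3, the component on which all complement pathways converge, overlapped between Aw and A+ mice. On STD it ran from 5.82 through 6.14 to 7.21 in AwTw mice and from 6.19 through 6.70 to 7.26 in AwT+ mice. Values of 6.62, 6.99, 7.17, 7.28 and 7.82 were measured in A+Tw/STD mice, and 6.89, 6.91, 7.16 and 7.36 in A+T+/STD mice. On this diet 3 of the 9 A+ mice stood above all Aw mice, and the other A+ mice lay within the Aw range. On TWD the order of the medians was the opposite, with 6.88 in AwTw mice (5.93 to 7.85) and 7.03 in AwT+ mice (6.17 to 7.68) against 6.52 in A+Tw mice (6.30 to 7.80) and 6.68 in A+T+ mice (6.26 to 7.44), and all ranges overlapped.

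Serping1, the C1 inhibitor, had the widest spread between mice of a group among the 7 genes, with a pooled SD of 0.547. C3 came close with 0.522, and C3ar1 had the smallest, 0.311. On STD it ran from 7.04 through 7.92 to 8.45 in AwTw mice and from 6.99 through 7.37 to 8.58 in AwT+ mice. In A+Tw/STD mice Serping1 was 7.62, 7.91, 8.00, 8.02 and 8.20, and in A+T+/STD mice 8.32, 8.55, 8.63 and 9.20. The A+T+/STD mice stood above all A+Tw/STD mice, as they did for 1.56% of all genes, but overlapped both Aw groups. On TWD the median was 8.15 in AwTw mice (7.05 to 8.88), 8.29 in AwT+ mice (6.85 to 8.69), 8.28 in A+Tw mice (7.61 to 8.54) and 8.43 in A+T+ mice (7.92 to 8.82), so all ranges overlapped.

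**Figure D1:**
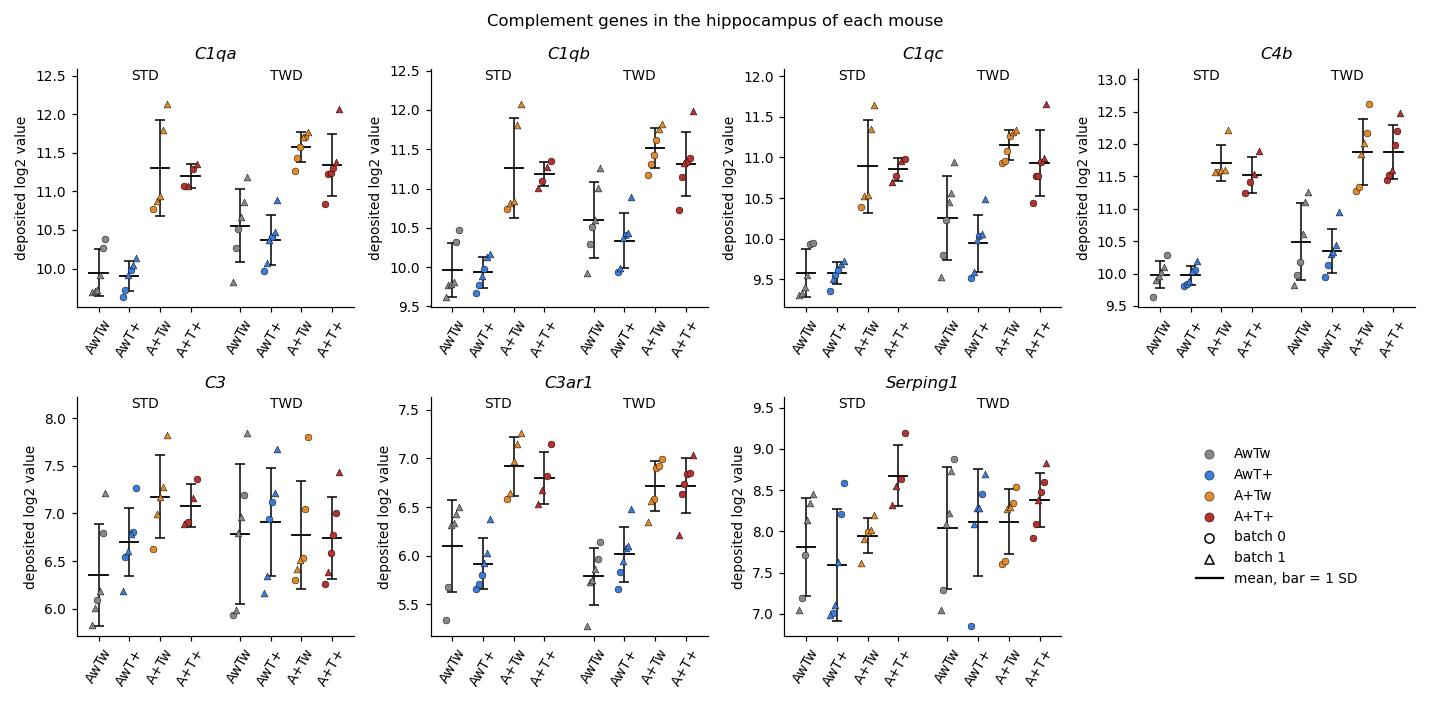
Deposited log2 value (y axis) of each complement gene in every mouse, by genotype and diet (x axis), with circles for batch 0, triangles for batch 1, a line at the group mean and a bar of 1 SD. For C1qa, C1qb, C1qc, C4b and C3ar1 the 9 A+ mice on STD all lie above the 12 Aw mice, while C3 and Serping1 overlap.

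Ordered by mean, the 4 Aw groups came below the 4 A+ groups for C1qa, C4b and C3ar1. For C1qa the order was AwT+/STD (9.91 ± 0.196, SD, n = 6), AwTw/STD (9.95 ± 0.308), AwT+/TWD (10.37 ± 0.326), AwTw/TWD (10.55 ± 0.473), A+T+/STD (11.20 ± 0.152, n = 4), A+Tw/STD (11.30 ± 0.619, n = 5), A+T+/TWD (11.34 ± 0.402) and A+Tw/TWD (11.57 ± 0.191). C4b had the same order, from 9.97 ± 0.152 to 11.88 ± 0.513. C3ar1 began with AwTw/TWD (5.79 ± 0.293) and ended with A+Tw/STD (6.92 ± 0.303). For C3 the order began with AwTw/STD (6.35 ± 0.534), ended with A+T+/STD (7.08 ± 0.224) and A+Tw/STD (7.18 ± 0.438), and had the TWD groups mixed between. In the orders of C1qa, C4b, C3ar1 and C3, each group overlapped the one before it.

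The comparison of mice with and without the APP/PS1 transgenes asks whether complement expression differs with these transgenes. No measure of amyloid was set against the values, so amyloid and transgene expression cannot be told apart here. Averaged over the 4 pairs of groups, 5 of the 7 genes were called higher in A+ mice and none lower, beside 3.77% of all genes called. C4b rose by 1.58 ± 0.106 on the log2 scale (adjusted p = 4.52e-15 in limma), a fold of 2.99. C1qa rose by 1.19 ± 0.104 (adjusted p = 1.2e-11), C1qb by 1.13 ± 0.109 (adjusted p = 1.68e-10) and C1qc by 1.14 ± 0.104 (adjusted p = 3.04e-11). C3ar1 rose by 0.85 ± 0.0936 (adjusted p = 5.67e-09), a fold of 1.8. C3 was 0.25 ± 0.153 higher (adjusted p = 0.428) and Serping1 0.40 ± 0.16 higher (adjusted p = 0.197), and neither passed. The median of the 7 genes was 1.13, beside -0.02 over all genes, and C4b ranked 12 and C1qa 23 of the 15897 genes by the size of the difference. In bulk tissue, more cells of a type and more RNA per cell cannot be told apart.

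The count stayed at 5 in each of the 45 fits that left out a mouse and without the 2 mice beyond 2 SD. In batch 1 alone, C4b was 1.54 ± 0.147, C1qa 1.31 ± 0.162 and C3ar1 0.60 ± 0.109 higher in A+ mice, and the same 5 genes were called. For batch 1 and for the fits with mice left out, the share of all genes called is not given beside the count. In batch 0 alone, fitted after the data were seen and with 1 A+Tw/STD mouse assumed to vary like the other groups, C4b was 1.64 ± 0.177, C1qa 0.98 ± 0.0941 and C3ar1 1.04 ± 0.088 higher, and the same 5 genes were called, beside 1.16% of all genes.

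In A+Tw against AwTw mice, 5 of the 7 genes were called on STD (0.925% of all genes) and 5 on TWD (0.824%). For C4b the difference was 1.69 ± 0.212 on STD (limma adjusted p = 6.73e-07), and it was 1.47 ± 0.205 (5.36e-06) on TWD. C1qa was higher by 1.33 ± 0.208 (adjusted p = 4.8e-05) and 1.09 ± 0.201 (adjusted p = 0.000788), and C3ar1 by 0.81 ± 0.187 (adjusted p = 0.0146) and 0.97 ± 0.181 (adjusted p = 0.000926). C3 was 0.83 ± 0.305 higher on STD, which did not pass (adjusted p = 0.482), and differed by -0.03 ± 0.295 on TWD. Fitted on the groups compared alone, C4b and C1qc were the 2 genes called on STD. On STD the difference in C1qa was 1.68 ± 0.273 in batch 1 and 0.44 ± 0.235 in batch 0, which holds 1 A+Tw/STD mouse and in which none of the 7 genes was called. In batch 1 alone none of the 7 was called on TWD, where it holds 2 A+Tw mice. The counts from single batches and from the groups compared alone are given without the share of all genes called there. A fall in them may thus not be particular to the complement genes.

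In A+T+ against AwTw mice, 4 of the 7 genes were called on STD (1.32% of all genes) and 3 on TWD (0.73%). On STD these were C1qa, C1qb, C1qc and C4b, with C4b higher by 1.58 ± 0.226 (adjusted p = 1.27e-05), while C3ar1 was 0.71 ± 0.199 higher and missed the threshold (adjusted p = 0.061). The C3ar1 difference was 1.48 ± 0.18 in batch 0 (adjusted p = 0.000834) and 0.21 ± 0.223 in batch 1 (adjusted p = 0.671). On TWD the genes called were C4b (1.47 ± 0.205, adjusted p = 6.85e-06), C3ar1 (0.96 ± 0.181, adjusted p = 0.00114) and C1qa (0.86 ± 0.201, adjusted p = 0.0209), while C1qb and C1qc were 0.78 ± 0.211 and 0.74 ± 0.2 higher with an adjusted p of 0.078. The count on TWD ran from 0 in batch 1 alone to 5 with the residual component as a covariate, and it was 5 without 1 AwTw/TWD mouse, without 1 A+Tw/STD mouse or without 1 A+T+/TWD mouse. These counts are given without the share of all genes called in the same fits, so their rise or fall may not be particular to the complement genes. The A+Tw and A+T+ comparisons share their AwTw mice.

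In A+T+ against AwT+ mice, which share the tau transgene, 5 of the 7 genes were called on STD (0.95% of all genes) and 5 on TWD (0.761%). For C4b the STD mice gave 1.55 ± 0.225 (limma adjusted p = 1.52e-05), and the TWD mice gave 1.61 ± 0.205 (1.15e-06). C1qa was higher by 1.29 ± 0.221 (adjusted p = 0.000252) and 1.04 ± 0.201 (adjusted p = 0.00178), and C3ar1 by 0.88 ± 0.199 (adjusted p = 0.0114) and 0.74 ± 0.181 (adjusted p = 0.0311). Serping1 was 1.09 ± 0.339 higher on STD, which did not pass (adjusted p = 0.156), and 0.30 ± 0.308 higher on TWD. In batch 1 alone 1 of the 7 genes was called on each diet, a count given here without the share of all genes called in that fit. Counted by mice, 5 of the 7 genes had every A+ mouse above every Aw mouse on STD, beside 0.686% of all genes, and 1 of the 7, C4b, had this on TWD, beside 0.239%.

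**Figure D2:**
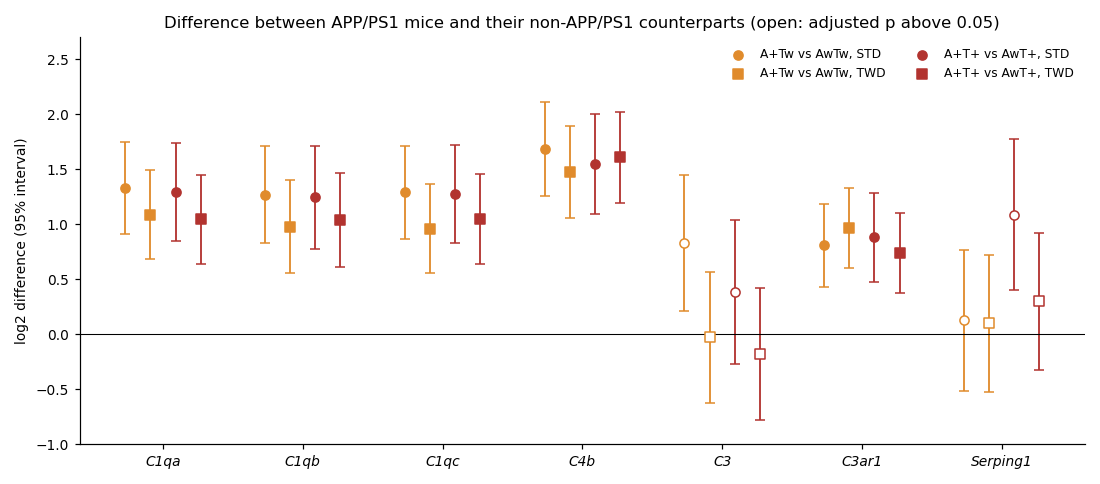
Log2 difference (y axis, bars are 95% intervals) of A+Tw against AwTw and of A+T+ against AwT+ mice for each complement gene (x axis), with circles for STD and squares for TWD and filled symbols for an adjusted p under 0.05. C1qa, C1qb, C1qc, C4b and C3ar1 are filled in all 4 comparisons and C3 and Serping1 in none.

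The tau transgene moved no complement gene past the threshold. None of the 7 was called in AwT+ against AwTw mice on STD (0% of all genes) or TWD (0%), in A+T+ against A+Tw mice on STD (0.00629%) or TWD (0%), or in T+ against Tw mice averaged over the 4 pairs (0.0189%). At an unadjusted limma p under 0.05 the count was 1 in A+T+ against A+Tw mice on STD, beside 3.88% of all genes. It was 0 in the other 4 comparisons. There 2.39% (AwT+ against AwTw, STD), 3.04% (the same, TWD), 1.31% (A+T+ against A+Tw, TWD) and 5.15% (T+ against Tw) of all genes passed. The 1 complement gene that passed was Serping1, which was 0.75 ± 0.356 higher in A+T+ than in A+Tw mice on STD (adjusted p = 0.999). For C1qa the difference between T+ and Tw mice was -0.12 ± 0.104, with a 95% interval from -0.33 to 0.09, and for C4b it was -0.05 ± 0.106, from -0.27 to 0.16. The effect of the APP/PS1 transgenes in T+ mice minus that in Tw mice was -0.04 ± 0.206 for C1qa and 0.58 ± 0.316 for Serping1. For this difference none of the 7 genes was called (0% of all genes), and 0 passed at an unadjusted p under 0.05, beside 1.46% of all genes.

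The comparison of diets asks whether TWD changed complement expression. Over all genotypes 4 of the 7 genes were called higher on TWD, beside 29.4% of all genes called. C1qa rose by 0.41 ± 0.102, C1qb by 0.39 ± 0.108, C1qc by 0.38 ± 0.104 and C4b by 0.39 ± 0.102 (adjusted p from 0.0157 to 0.0159 in limma), folds from 1.3 to 1.33. C3ar1 differed by -0.11 ± 0.0923, C3 by 0.00 ± 0.156 and Serping1 by 0.19 ± 0.158, and none of these passed. The median of the 7 genes was 0.38, beside -0.00 over all genes.

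These diet calls moved with the batch and with the residual component. In batch 1 C1qa was 0.56 ± 0.154 higher on TWD (adjusted p = 0.0176) and C4b 0.46 ± 0.139 higher (adjusted p = 0.0184), and C3ar1 was 0.35 ± 0.122 lower (adjusted p = 0.0288), so 5 of the 7 genes were called, beside 40.9% of all genes. In batch 0 C1qa was 0.25 ± 0.106 and C4b 0.26 ± 0.163 higher, both with an adjusted p of 0.82, and none of the 7 genes was called, beside 0% of all genes. Without the 2 mice beyond 2 SD, an alternative added after the data were seen, C1qa was 0.34 and C4b 0.32 higher with an adjusted p of 0.0555, and 0.00629% of all genes were called. With the residual component as a covariate C1qa was 0.13 and C4b 0.22 higher with a limma adjusted p of 0.587. In that fit 0% of all genes were called. Scores on this component still held diet differences, so the covariate can take up part of the diet effect itself. The 2 mice left out, both on TWD, were picked by the same scores. The part of the residual component in the diet difference was not tested.

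Within the genotypes, 3 of the 7 genes were called higher on TWD in AwTw mice, beside 9.35% of all genes. C1qa was higher by 0.61 ± 0.198, C1qb by 0.63 ± 0.208 and C1qc by 0.67 ± 0.197, each with an adjusted p of 0.0498. The count was 0 in 32 of the 45 fits that left out a mouse and 3 or 4 in the other fits. The share of all genes called in those fits is not given, so this fall may not be particular to the complement genes. In batch 0 the C1qa difference was 0.06 ± 0.192 and in batch 1 0.88 ± 0.273. None was called in AwT+ mice (0% of all genes), where C1qa differed by 0.43 ± 0.199. It was the 1 complement gene there with an unadjusted limma p under 0.05, beside 7.44% of all genes. None was called in mice with APP/PS1 alone (0%) or with both sets of transgenes (0%), where C1qa differed by 0.36 ± 0.214 and 0.18 ± 0.222. In these mice none of the 7 had an unadjusted limma p under 0.05, beside 4.43% and 2.57% of all genes.

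The effect of TWD in A+ mice minus that in Aw mice was called for none of the 7 genes (0% of all genes), and 1 passed at an unadjusted limma p under 0.05, beside 2.59% of all genes. It was -0.25 ± 0.211 for C1qa (95% interval from -0.67 to 0.18) and -0.08 ± 0.215 for C4b (from -0.51 to 0.36). The 1 gene was C3, with -0.71 ± 0.309 (unadjusted p = 0.0271, adjusted p = 0.917 in limma). Among Aw mice C3 differed between the diets by 0.43 ± 0.29 without and 0.22 ± 0.291 with the tau transgene. Among A+ mice it differed by -0.42 ± 0.313 without and -0.35 ± 0.325 with it.

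**Figure D3:**
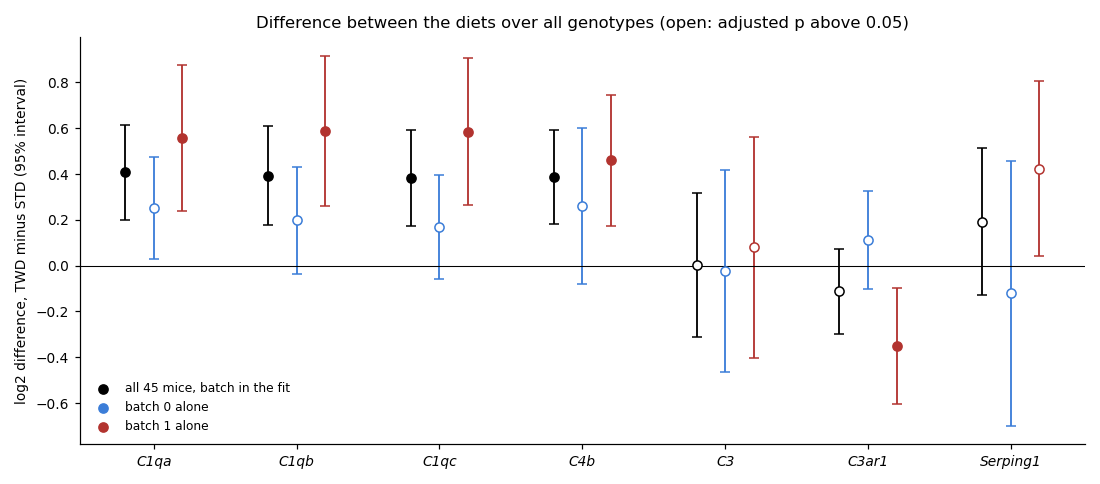
Log2 difference of TWD against STD over all genotypes (y axis, bars are 95% intervals) for each complement gene (x axis), in all 45 mice and in each batch alone, with filled symbols for an adjusted p under 0.05. C1qa, C1qb, C1qc and C4b are filled in all mice and in batch 1 (C1qa 0.56), where C3ar1 (-0.35) is filled too, and all genes are open in batch 0 (C1qa 0.25).

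Of 48 other genes of the complement pathway, 27 were in the table. In A+ against Aw mice 5 of the 27 were called higher and none lower, with a median of 0.13, beside 3.77% of all genes called. Receptors gave 4 of the 5. Itgax, Itgb2 and Itgam, which encode chains of complement receptors, rose by 2.32 ± 0.0978, 0.96 ± 0.0848 and 0.53 ± 0.0855, and C5ar1, the C5a receptor, by 0.32 ± 0.0721. Clu, which encodes clusterin, an inhibitor of the terminal complex, rose by 0.25 ± 0.0714 (limma adjusted p = 0.034). The C1 proteases C1ra and C1s1 differed by 0.14 ± 0.0903 and 0.04 ± 0.1 and C4a by 0.34 ± 0.145 (adjusted p = 0.238), none of which passed. Cfp, properdin of the alternative pathway, differed by -0.11 ± 0.147 and C8g of the terminal complex by 0.05 ± 0.0769.

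Over all genotypes 1 of the 27 was called higher on TWD and 2 lower, beside 29.4% of all genes called. Vtn, which encodes vitronectin, an inhibitor of the terminal complex, rose by 0.36 ± 0.135 (adjusted p = 0.0407). Cd55, which speeds the decay of the C3 convertases, fell by 0.38 ± 0.126 (adjusted p = 0.0258), and Csmd1, a membrane protein that inhibits complement, fell by 0.26 ± 0.0914 (adjusted p = 0.0304). Among 7 C1q-like synaptic proteins none was called in A+ against Aw mice and 1, C1ql1, was 0.28 ± 0.0853 higher on TWD (adjusted p = 0.0192). In batch 0 alone none of these diet calls was made.

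**Figure D4:**
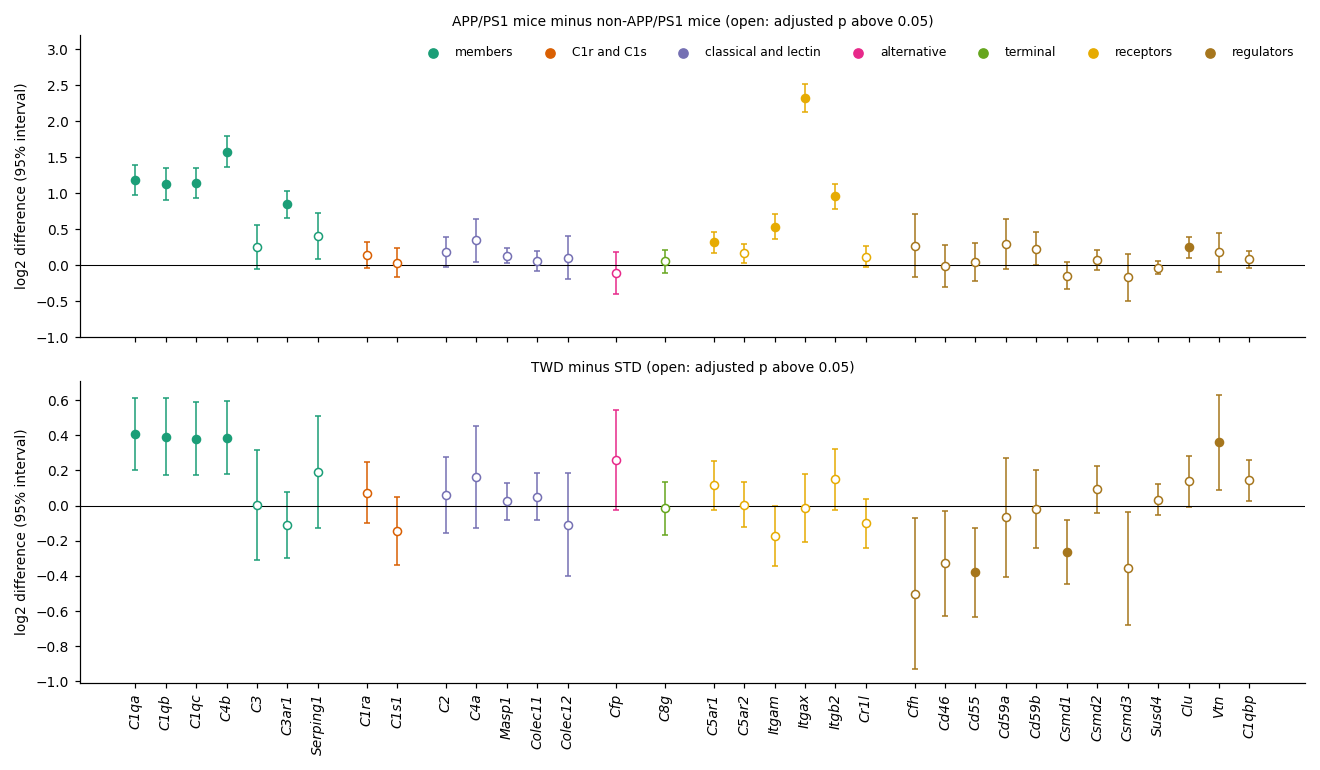
Log2 difference (y axis, bars are 95% intervals) in A+ against Aw mice (upper panel) and TWD against STD mice (lower panel) for the 7 complement genes and the 27 other genes of the pathway (x axis), coloured by role, with filled symbols for an adjusted p under 0.05. In the upper panel Itgax (2.32) lies above all members, and 4 receptors and Clu are filled beside 5 members.

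Between Aw and A+ mice most markers of microglia moved with the C1q genes. In A+ against Aw mice 10 of 15 microglia markers were called higher, beside 3.77% of all genes called. Among them were Aif1 (0.52 ± 0.0857) and Csf1r (0.63 ± 0.0609), while P2ry12 (0.06 ± 0.144) and Tmem119 (0.24 ± 0.0844) did not pass. The summed microglia marker score, a mean of standardised values, lay between -1.157 and -0.212 in Aw mice and between -0.094 and 1.145 in A+ mice. Of 13 plaque-associated microglia markers 12 were called higher, with Cst7 at 4.13 ± 0.0962, and of 9 reactive astrocyte markers 5, among them Gfap (1.44 ± 0.0619) and Serpina3n (0.73 ± 0.0961). Of the other lists 1 of 10 astrocyte markers (Gfap), 1 of 10 oligodendrocyte markers (Cldn11), and 0 each of 10 neuron, 10 endothelial, 10 choroid plexus, 10 fibroblast and meningeal, 5 perivascular macrophage and 4 blood markers were called higher, and none of these lists had a marker called lower. Cldn5 of endothelial cells differed by -0.01 ± 0.123. On TWD over all genotypes 6 of the 15 microglia markers were called higher and 2 lower, beside 29.4% of all genes called. Higher were, among others, Aif1 (0.45 ± 0.0852) and Tmem119 (0.30 ± 0.083), and lower was P2ry12 (-0.36 ± 0.138). From STD to TWD the mean microglia score went from -0.571 to -0.385 in AwTw and from -0.787 to -0.577 in AwT+ mice. It went from 0.712 to 0.746 in A+Tw and from 0.629 to 0.562 in A+T+ mice. The part of these cells in the complement differences was not tested.

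Outside the members, the genes most like C1qa over the 8 group means were Fcgr1 (r = 0.998), Ifnar2 (0.996) and Psmb8 (0.995), and Fcgr1 and Ifnar2 also came first for C1qb and C1qc, before Fermt3. For C4b they were Trem2 (0.994), Lat2 and Cd52, and for C3ar1 Lcp1 (0.992), Mpeg1 and Bcl2a1b. For C3 they were Wnt11 (0.962), Tomm6os and Tmem125, and for Serping1 Sdc1 (0.981), Akr1b8 and Tamm41. These are descriptions over 8 points that come from the same mice for every gene.

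Within groups, the C1q genes moved nearly as 1. After group and batch were removed, C1qa and C1qb had r = 0.98 in the 24 Aw mice (rho = 0.97, permutation p = 1e-05 for both) and r = 0.98 in the 21 A+ mice (rho = 0.95, permutation p = 1e-05 for both). This is the smallest p the 100000 permutations can give, and it is 0.00028 adjusted over the 196 relations computed. Without the 2 mice farthest from the median r was 0.97 in both sets. C1qa followed the residual component, with r = 0.75 in Aw and 0.83 in A+ mice, and the genes most like it over the 45 residuals were Ube2m (0.952), Nop53 and Puf60, with Ube2m, Cfl1 and Rplp0 for C1qb and Drg2, Puf60 and Trem2 for C1qc. The share of all genes with so large an r is not given here. The component was built from all genes, members included, and its sign was set so that C1qa rose with it. Its scores still held group differences, which had been removed from the C1qa values set against them.

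C3ar1 ran against the C1q genes in Aw mice. It also ran against the residual component, with r = -0.55 in Aw and -0.64 in A+ mice, where C1qa had 0.75 and 0.83. The part of this component in the relation of the 2 genes was not tested. C1qa and C3ar1 had r = -0.56 (permutation p = 0.00411, adjusted p = 0.023) and rho = -0.54 (permutation p = 0.0071), with r of -0.42 in batch 0 and -0.63 in batch 1, and -0.38 without the 2 farthest mice. In A+ mice r was -0.39 (rho = -0.28, permutation adjusted p = 0.2), with 0.49 in batch 0 and -0.62 in batch 1, so the sign differed between batches. The genes most like C3ar1 over the residuals were Cyp4v3 (0.794), Cd34 and P2ry13. C3 followed C1qa in A+ mice (r = 0.65, permutation p = 0.00195, adjusted p = 0.0132, rho = 0.68, permutation p = 0.00104), with 0.70 and 0.72 within the batches and 0.68 without the 2 farthest mice, while in Aw mice r was 0.27 (rho = 0.18, permutation adjusted p = 0.35). For C3 the most like genes were Kcnk1 (0.623), Ankrd39 and Surf4. C4b and C1qa had r = 0.62 in Aw mice (permutation p = 0.00136, adjusted p = 0.0101, rho = 0.38, permutation p = 0.067), with 0.34 and 0.76 within the batches. It was 0.34 without the 2 farthest mice and so rests on them. In A+ mice r was 0.37 (rho = 0.37, permutation adjusted p = 0.228). For C4b the most like genes were Ipo13 (0.848), Trmt1 and Rrbp1.

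Serping1 followed the markers of fibroblasts and meninges. Its residuals had r = 0.94 with their summed score in Aw mice (permutation p = 1e-05, adjusted p = 0.00028, rho = 0.93, permutation p = 1e-05), with 0.98 and 0.90 within the batches and 0.94 without the 2 farthest mice. In A+ mice r was 0.73 (permutation p = 0.00012, adjusted p = 0.00168, rho = 0.82, permutation p = 3e-05), with 0.84 and 0.75 within the batches and 0.69 without the 2 farthest mice. With the choroid plexus score r was 0.52 in Aw mice (permutation p = 0.0103, adjusted p = 0.043, rho = 0.48, permutation p = 0.0186), with 0.58 and 0.51 within the batches and 0.51 without the 2 farthest mice. In A+ mice it was 0.72 (permutation p = 0.00019, adjusted p = 0.00248, rho = 0.69, permutation p = 0.00065), with 0.83 and 0.51 within the batches and 0.61 without the 2 farthest mice. Other marker scores are given here without r, but that of perivascular macrophages also went with Serping1 in most Aw mice, though not in every one. The Aw mouse with the lowest Serping1 residual (-1.21, AwT+/TWD) had -1.01 on that score after group and batch. The Aw mouse with the highest (1.03, AwT+/STD) had 0.89. The genes most like Serping1 over the residuals were Slc6a13 (0.946), Itih2 and Col1a2. The A+T+/STD mice, which had the highest Serping1 mean, also had the highest mean choroid plexus score, 0.999 (0.662 to 1.201), and the highest mean fibroblast and meningeal score, 0.763 (0.242 to 1.216). With the choroid plexus score as a covariate Serping1 was 0.41 higher in A+T+/STD than in AwTw/STD mice, in place of 0.88, and 0.21 higher in A+ than in Aw mice, in place of 0.40. The score itself differed between the groups, so the covariate can take up part of a group difference. The part of choroid plexus or meningeal tissue in the Serping1 differences was not tested.

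**Figure D5:**
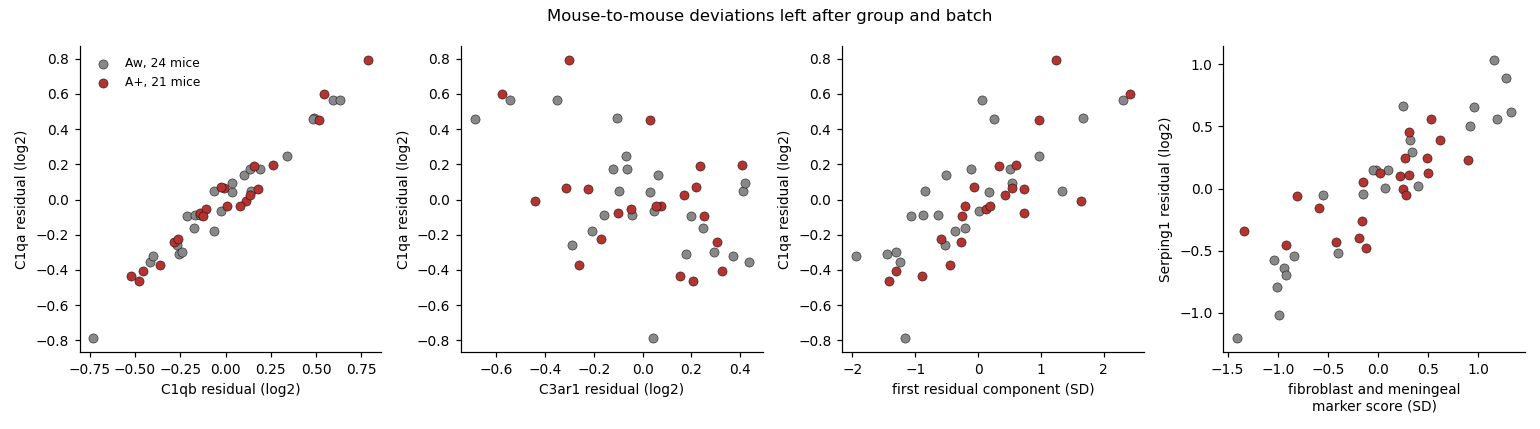
Deviations of single mice left after group and batch, for 24 Aw (grey) and 21 A+ (red) mice, with C1qa (y axis, log2) against C1qb, C3ar1 and the first residual component, and Serping1 (y axis, log2) against the fibroblast and meningeal marker score. The component score is not such a deviation, because group differences remain in it. C1qa and C1qb lie along a line (r = 0.98 in Aw mice), as do Serping1 and the score (r = 0.94 in Aw mice).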

How the data were processed

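The data were 1 table of hippocampal poly(A) RNA-seq values for 45 mice, each in the group its label gives. Per the authors' methods, reads were trimmed with Trimmomatic 0.38, freed of ribosomal and mitochondrial reads with Bowtie2 2.2.3, and quantified with kallisto 0.44.0. The authors deposited log2 values from DESeq2 1.22.2 (variance-stabilising transformation) after removal of a batch effect with limma 3.38.3. The deposited batch means are equal for every gene. Counts were not used here, so depth and its precision are unknown.

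The members, lists and tests were chosen with earlier results of these data known. Groups were compared with limma 3.58.1 in R 4.3.3, with 8 group means, batch and a mean-variance trend fitted to all 45 mice, and diet over all genotypes in an additive fit. P-values were adjusted by Benjamini-Hochberg over 15897 genes, with a threshold of 0.05. Levels, relations (100000 permutations, two-sided) and figures used Python 3.11.15 with scipy 1.17.1. The fit was tested on simulated data.

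Named genes were the 7 members, pathway genes past the threshold in an A+ against Aw or a diet comparison, the 3 genes most like each member by Pearson's r, and fixed marker and label-check genes. C4a, C1ra, C1s1, Cfp, C8g, C1ql1 and Cldn11 were named after their values were seen. Alternatives were no batch term, each batch alone, only the groups compared, quantile normalisation, a filter at the 25th percentile, copied genes counted once, no mean trend, 3 further covariates (label prefix, residual component, choroid plexus score), each mouse left out and, chosen after seeing the data, the 2 mice beyond 2 SD left out and the batch 0 comparisons with a group of 1 mouse.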

Additional observations from a re-analysis of the deposited data

Results flagged for a closer look

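Single mice that stood apart from their group were looked for in each member and group, 56 in all, with Dixon's criterion, which chance alone meets in about 1 in 20 groups. C4b was 12.21 in the highest A+Tw/STD mouse, while the next mouse had 11.59. Serping1 was 6.85 in the lowest AwT+/TWD mouse, while the next mouse had 8.09.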

How the results depend on the processing

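The count of 5 members called in A+ against Aw mice was 4 under the low-value filter, which left out C3ar1, and 5 under every other alternative run. Of all counts of members under the alternatives other than leaving out a mouse, 204 stayed within 1.5 times the reported count, 3 were higher and 20 lower. Only the groups compared gave 2 calls for A+Tw against AwTw on STD, 1 for A+T+ against AwTw on TWD and 0 for diet in AwTw mice. Batch 0 alone gave 0 for A+Tw against AwTw on STD (a group of 1 mouse), 1 for A+T+ against AwTw on STD and 1 on TWD, and 0 for diet in AwTw mice and over all genotypes. Batch 1 alone gave 0 for A+Tw against AwTw on TWD, 1 for A+T+ against AwTw on STD and 0 on TWD, 1 on each diet for A+T+ against AwT+, and 5 for diet in AwTw mice. Quantile normalisation gave 5 for A+T+ against AwTw on TWD, as did the residual component as a covariate. Diet in AwTw mice had 0 calls under quantile normalisation, without the mean trend, with the label prefix, with the residual component and without the 2 mice beyond 2 SD, and diet over all genotypes had 0 under the last of these and with the residual component. Leaving out 1 mouse gave 2 to 5 calls for A+T+ against AwTw on TWD and 0 to 4 for diet in AwTw mice. These counts are given without the share of all genes called in the same fit, so a rise or fall may not be particular to the members. The cause was not tested.

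Among members that were not called, some differences changed sign. In A+Tw against AwTw on STD, Serping1 was -0.0572 in batch 1 and ran from -0.0399 to 0.25 with a mouse left out. On TWD, C3 was 0.36 in batch 0, 0.16 without the 2 mice and -0.24 to 0.18 with a mouse left out, and Serping1 was -0.0521 in batch 0, -0.14 with the choroid plexus score and -0.0921 to 0.31 with a mouse left out. In A+T+ against AwTw on TWD, C3 was 0.0934 in batch 0, 0.0116 in batch 1, 0.0525 in only the groups compared and -0.27 to 0.15 with a mouse left out. For diet in AwTw mice (C3ar1, TWD vs STD, AwTw), C3ar1 was 0.54 in batch 0 and 0.0323 with the residual component. For diet over all genotypes (C3, TWD vs STD, all genotypes), C3 was -0.000273 without a batch term, -0.0226 in batch 0, -0.0166 with the label prefix, -0.15 with the residual component, -0.10 without the 2 mice and -0.0658 to 0.0483 with a mouse left out, C3ar1 was 0.11 in batch 0 and 0.0766 with the residual component, and Serping1 was -0.12 in batch 0. No paired analysis was possible because the labels give the mice no replicate numbers shared across groups.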
